A study of Mus musculus with 2 samples.

Results

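CTCF binding was mapped at 4 imprinted loci of the mouse hindbrain, those of Peg3, Grb10, Dlk1 and Gnas, through the 9 genes Peg3, Usp29 and Zim1, then Grb10 and Ddc, then Dlk1, Meg3 and Rtl1, and Gnas. CTCF is a zinc finger protein that holds the ends of chromatin loops and can insulate genes from enhancers. A peak was taken when its summit lay inside such a gene, or no more than 50 kb beyond either end, in the GENCODE vM21 annotation on mm10. This gave 53 of the 62686 peaks of the optimal set, with 15 at the Peg3 locus, 14 at the Grb10 locus, 12 at the Dlk1 locus and 12 at the Gnas locus. The optimal set holds the peaks that the submitters kept by the irreproducible discovery rate (IDR), which asks how well peak ranks repeat between lists.

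The study has 1 group of 2 CTCF ChIP-seq libraries, replicates 1 and 2, from hindbrain of B6NCrl mice on postnatal day 0. Per the labels, both replicates came from a single pool of pulverised tissue from several dissections, so what sets them apart may be technical. Sex was not recorded, no treatment or allele is named, and there is no second condition, so no test between groups was possible. The signal of a peak is the score its caller gave it, on a scale that is not stated. Peaks of the 2 libraries were therefore compared by rank, 1 being the strongest of the 300000 in each library's list. Read counts are not part of the files, so depth is unknown, and the 95% intervals below cover counting error only. CTCF peaks do not measure expression, so the tissue label was not checked against marker genes.

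Imprinted genes are transcribed mainly from the copy inherited from the mother or mainly from that of the father. The choice is set by DNA methylation laid down in the germ line at control regions. CTCF can bind an unmethylated copy of such a region and leave the methylated copy free, and methylation of a CpG inside its core sequence weakens its binding. Peg3, a zinc finger gene, and Usp29, a ubiquitin protease gene, share a promoter region and are expressed from the paternal copy, while their neighbour Zim1 is a maternally expressed zinc finger gene. Grb10 encodes an adaptor of insulin and growth factor receptors. It is maternally expressed in most mouse tissues and paternally expressed in neurons, where transcription starts at other promoters. Dlk1, a transmembrane protein of the Delta family, and the retrotransposon-derived Rtl1 are paternally expressed, and Meg3 is a maternally expressed noncoding RNA. Gnas encodes the stimulatory G protein alpha subunit and further products from alternative starts, in the order Nesp, XL, 1A and Gs alpha. Nesp is maternally expressed, XL and 1A paternally, and Gs alpha from both copies in most tissues. The peak lists do not tell the copies apart, so a peak may come from either or from both.

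The sequences below show where CTCF could touch DNA at the peaks the results turn on. Each runs 5′ to 3′ on the strand given, in mm10 sequence of the GRCm38 assembly, and the capitals mark the best match to the 14-base CTCF core consensus within 50 bp of the summit. A best match with more than 2 mismatches is shown for comparison and was not counted as a match. The 3 peaks below from introns of Usp29 carried perfect cores, as did 1 in an intron of Ddc.
Usp29 intron, chr7:6918334-6918595, minus strand: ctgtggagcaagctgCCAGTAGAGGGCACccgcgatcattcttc
Usp29 intron, chr7:6937199-6937446, minus strand: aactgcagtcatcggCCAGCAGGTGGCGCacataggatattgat
Usp29 intron, chr7:6940826-6941038, plus strand: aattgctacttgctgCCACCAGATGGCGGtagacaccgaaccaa
Ddc intron, chr11:11820263-11820548, plus strand: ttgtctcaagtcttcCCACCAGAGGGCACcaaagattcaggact

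The strongest peak at the Grb10 locus and a pair in an intron of Grb10 had 1 or 2 mismatches in the core, and the strongest peak near a start of Grb10 had 3, shown last.
between Fignl1 and Ddc, chr11:11812031-11812284, plus strand: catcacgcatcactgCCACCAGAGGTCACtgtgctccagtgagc
Grb10 intron, chr11:11973415-11973719, minus strand: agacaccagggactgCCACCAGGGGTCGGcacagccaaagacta
Grb10 intron, chr11:11975011-11975161, minus strand: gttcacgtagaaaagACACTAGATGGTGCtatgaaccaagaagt
Grb10 start, chr11:12025779-12025950, strand tied: agacttcgCCACACGGGGTCGCtgcgtgcg

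The cores near the starts of Meg3, Gnas and the antisense gene Nespas are shown because many imprinted promoters are rich in CpG, and these cores hold CG within the capitals. The 2 Gnas intron cores at the end lie far from any start and are shown because their peaks are the strongest of that locus. The core in the Peg3 intron has the YY1 motif at the left end of the printed stretch.
Peg3 intron, chr7:6727270-6727501, minus strand: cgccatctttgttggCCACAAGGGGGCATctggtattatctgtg
Meg3, chr12:109542016-109542335, plus strand: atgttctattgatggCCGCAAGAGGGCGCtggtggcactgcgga
Meg3, chr12:109542940-109543152, minus strand: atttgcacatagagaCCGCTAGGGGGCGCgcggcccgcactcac
Gnas upstream, chr2:174284073-174284271, minus strand: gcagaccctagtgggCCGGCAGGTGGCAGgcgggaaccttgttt
Nespas start, chr2:174295334-174295653, minus strand: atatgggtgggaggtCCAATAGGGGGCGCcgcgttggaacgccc
Gnas intron, chr2:174310946-174311163, plus strand: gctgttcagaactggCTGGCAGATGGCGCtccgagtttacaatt
Gnas intron, chr2:174312199-174312430, plus strand: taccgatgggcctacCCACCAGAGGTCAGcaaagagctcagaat

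At the Peg3 locus the 2 strongest of the 15 peaks were in introns of Usp29, far from any annotated start, and a weaker run of peaks lay at the shared start of Peg3 and Usp29 and in introns of Peg3. The window ran over 396.0 kb, chr7:6621269-7017219. Its longest stretch without an optimal peak, 176.8 kb, lay within Usp29. This stretch held 17 peaks of the pooled list that are not in the optimal set, and the strongest of them had a signal of 26.2.

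The Usp29 introns held the peak of highest signal at the locus, 314, which ranked 6639 in replicate 1 and 6877 in replicate 2. The next, of signal 305, ranked 7153 in replicate 1 and 7462 in replicate 2. A further peak 3617 bp to the right of the strongest had a signal of 239 and ranked 12075 in replicate 1 and 11571 in replicate 2. These 3 peaks had perfect cores, the first pair on the minus strand and the last on the plus strand, and the ranks of each differed between the libraries by at most 1.04 times. The other 4 of the 7 peaks inside Usp29 were weak, with signals between 19.7 and 29.6.

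**Figure D1:**
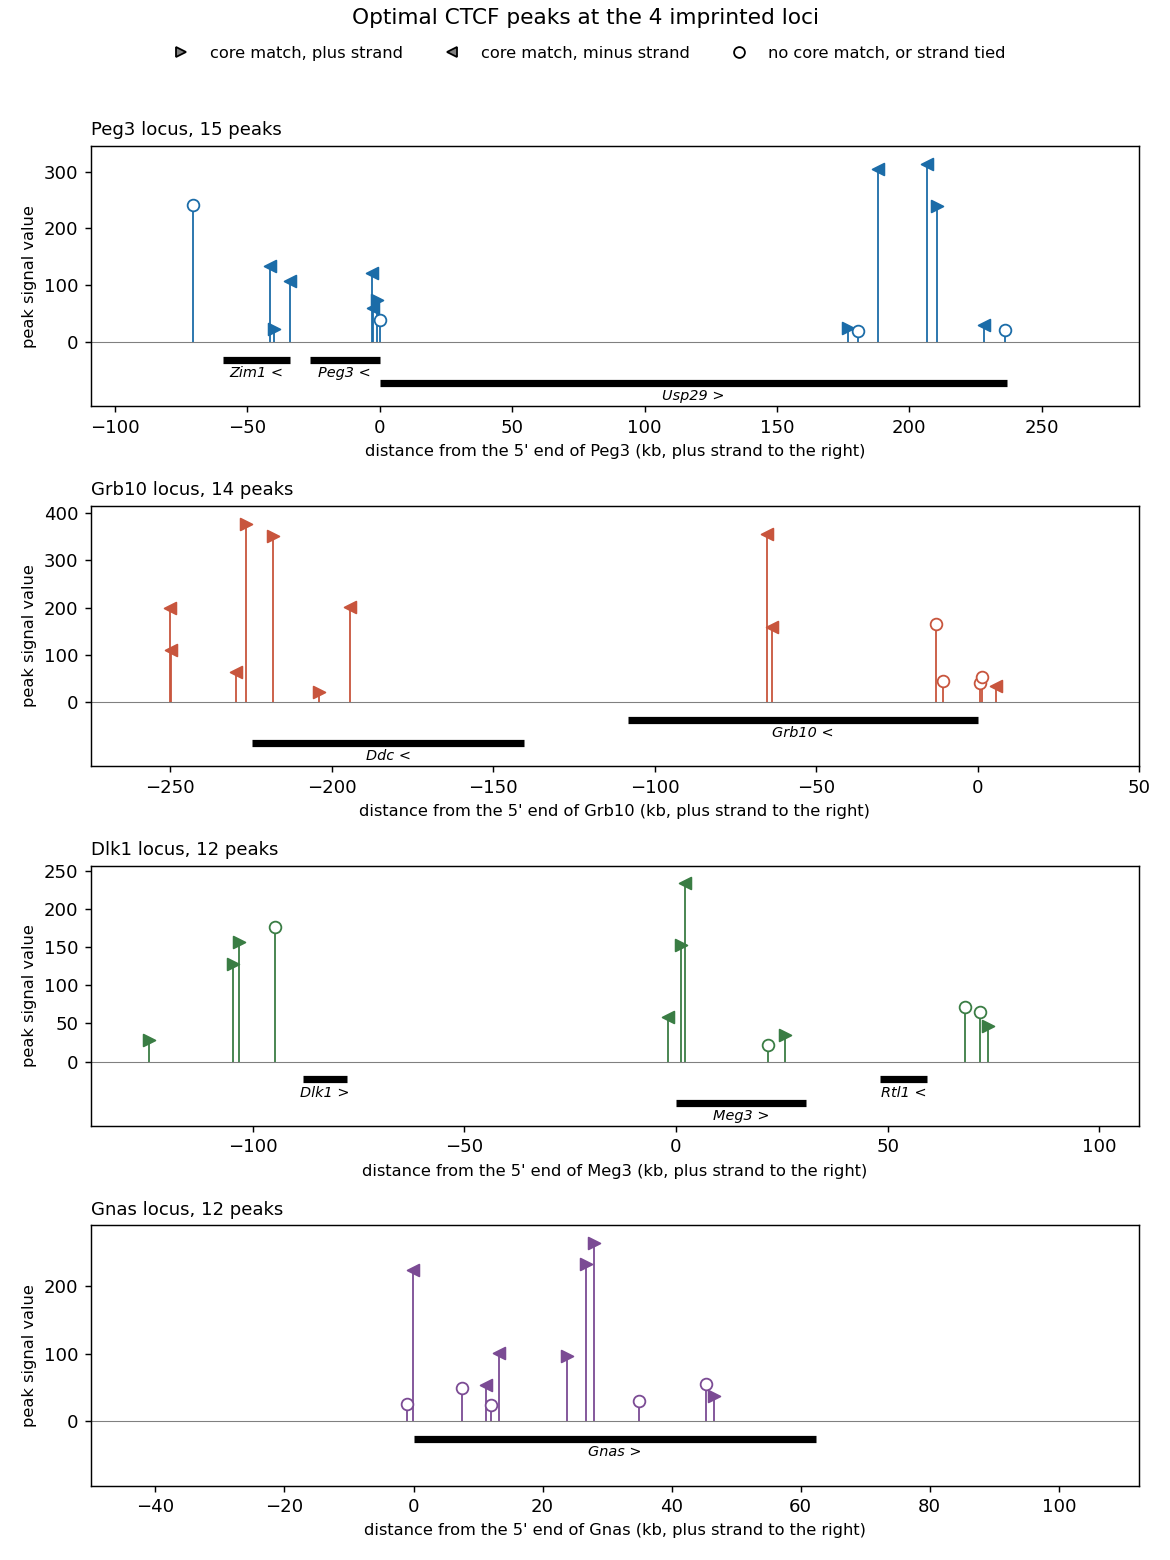
Signal of each optimal peak (vertical axis, caller's score) against its distance in kb from the 5′ end of Peg3, Grb10, Meg3 or Gnas, with black bars for the member genes and < or > for their strand. Filled triangles point along the strand of the core match, and open circles have no match or a match tied between strands. The panels show the strong peaks in Usp29 introns (314 at most), around Ddc (378 at most), at Meg3 (234 at most) and within Gnas (264 at most), and the stretches without a peak in Usp29, between Ddc and Grb10, and between Dlk1 and Meg3.

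The shared start of Peg3 and Usp29 had a peak of modest signal. Its summit lay 58 bp inside the transcript Peg3-203, in an untranslated exon of Peg3, and 217 bp from the 5′ end of Usp29. The signal was 39.3, with ranks of 54117 in replicate 1 and 36569 in replicate 2, and the best core there had 3 mismatches. Introns of Peg3 held 3 more peaks. The farthest from the start, 3018 bp into the transcript, had a signal of 122 and ranked 18613 in replicate 1 and 29904 in replicate 2. Its neighbour 370 bp away, chr7:6727692-6727858, had a signal of 60.0 and ranked 64113 in replicate 1 and 24846 in replicate 2. This second peak falls outside the naming rule and was chosen after its values were seen. Replicate 1 thus ranked the outer peak above its neighbour and replicate 2 ranked them the other way round. The peak nearest to the start, at 1129 bp, had a signal of 74.7, with 2 CpG in its core, and ranked 33499 in replicate 1 and 28031 in replicate 2.

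YY1 is a zinc finger factor for which a run of sites in the Peg3 intron is known in mouse. Its motif CGCCATNTT was looked for up to 100 bp from each summit, reading both strands. It was present at 3 of the 53 peaks (5.66%), against 0.7505% of the other optimal peaks. Of these 3, 2 were neighbouring peaks in intron sequence of Peg3, where such sites were already known. The share therefore says little about the 4 loci as a set. The outer intron peak of Peg3 held it in 2 places, of which 1 lay 6 bases from the CTCF core, and its neighbour held it in 1 place, 73 bases from the core. Ddc supplied the remaining case, in the intron peak printed above, where 47 bases separated motif and core. No motif overlapped a core. A match is a string of letters and does not show that the factor binds there.

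Zim1 had 2 start-site peaks. The peak chr7:6696506-6696825, 216 bp upstream of its 5′ end, had a signal of 107 and ranked 23678 in replicate 1 and 27947 in replicate 2. The peak chr7:6688878-6689019, 268 bp upstream of the internal start of Zim1-203, had a signal of 134 and ranked 20644 in replicate 1 and 22643 in replicate 2. Both carried a core with 2 mismatches on the minus strand. The second site was in sequence that the assembly marks as repetitive, as were 2 weak peaks in Usp29. All 3 such peaks of the 53 lay at the Peg3 locus (5.66%, against 18.45% of the other optimal peaks).

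Beyond Zim1, an intron of the noncoding Zim2 held the peak chr7:6659712-6659932, with a signal of 241 and ranks of 10244 in replicate 1 and 13912 in replicate 2. Its best core match had 5 mismatches, also within 100 bp of the summit. For comparison, 1240 of 21666 optimal peaks without a match (5.72%) were as strong or stronger.

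The Grb10 locus held the strongest peaks of the 4 loci, and 2 of its 3 strongest lay in or beside Ddc and the other in an intron of Grb10. Of the 53 peaks, 3 ranked among the strongest 6268 of the optimal set, a smaller share than the 6263 of 62624 other optimal peaks on the assembled chromosomes. All 3 were at this locus. All 14 peaks of the locus were in the conservative IDR set too, as were 87.1% of all optimal peaks. The window covered 324.6 kb, chr11:11764101-12088683. Ddc encodes the decarboxylase that makes dopamine and serotonin and is paternally expressed in the mouse heart, and Fignl1, an ATPase gene, is its neighbour on the other side from Grb10.

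Between Fignl1 and Ddc lay the strongest of all 53 peaks. Its signal was 378, it ranked 3962 in replicate 1 and 2733 in replicate 2, and it stood 3198 bp upstream of a start of Fignl1. The intron of Ddc that follows had a peak of signal 351 with a perfect core, which ranked 6167 in replicate 1 and 3269 in replicate 2. Replicate 2 ranked both of these peaks higher, the second by 1.89 times. Both cores pointed along the plus strand. Further along, chr11:11844356-11844537 in another Ddc intron had a signal of 202, ranks of 16212 in replicate 1 and 13152 in replicate 2, and a minus-strand core with 1 mismatch. From there a stretch of 129.1 kb to the Grb10 intron held no optimal peak, and the strongest of its 15 pooled peaks had a signal of 19.9. All the clustered starts of Ddc at its 5′ end fall in that stretch.

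The body of Grb10 held a pair of peaks 1513 bp apart, both with minus-strand cores. The stronger had a signal of 356 and ranked 4296 in replicate 1 and 4764 in replicate 2. The weaker had a signal of 158 and ranked 17616 in replicate 1 and 20258 in replicate 2. The nearest annotated start, that of Grb10-202, was 2935 bp from the stronger.

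Of the 9 annotated starts of Grb10, 4 lay within 1 kb of a peak, and 3 peaks accounted for them. The strongest, chr11:12025779-12025950, lay 446 bp into the transcript Grb10-209 in an untranslated exon. Its signal was 165 and it ranked 18678 in replicate 1 and 16904 in replicate 2. The peak chr11:12027802-12028121, 9 bp into Grb10-203, had a signal of 44.7 and ranked 47417 in replicate 1 and 37171 in replicate 2. The peak chr11:12039239-12039558, 716 bp upstream of the 5′ end of the gene, had a signal of 40.7 and ranked 48749 in replicate 1 and 37033 in replicate 2. None of these start-site peaks had a core with 2 or fewer mismatches, and the best in each had 3. CpG content was highest at the strongest of them, with an observed to expected CpG ratio of 0.921 within 100 bp of the summit. The ratio is the CpG count over that expected from the C and G content. Fignl1 also had a peak 9 bp from a start, with a signal of 62.8 and ranks of 29167 in replicate 1 and 37883 in replicate 2. The replicate 2 rank is that of an overlapping peak with its summit 260 bp away.

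**Figure D2:**
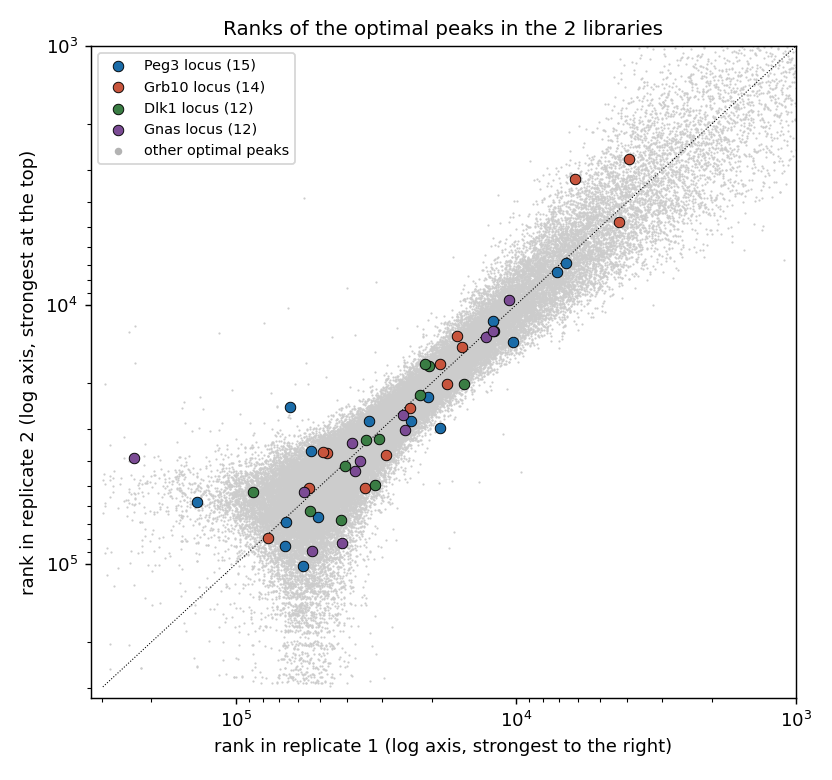
Rank of each optimal peak in the list of replicate 2 (vertical, log axis, strongest at the top) against its rank in replicate 1 (horizontal, log axis, strongest to the right). Coloured points are the peaks of the 4 loci, grey points are other optimal peaks, the very strongest of which fall beyond the axes, and the dotted line marks equal ranks. Among the 3 strongest members, the Ddc intron peak is the farthest from the line, ranked 6167 in replicate 1 and 3269 in replicate 2. The farthest of all is the weak Gnas peak ranked 230955 in replicate 1 and 38867 in replicate 2.

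At the Dlk1 locus the strongest peak and the fourth in signal formed a pair at the start region of Meg3, the peaks between them in signal lay upstream of Dlk1, and Dlk1 and Rtl1 had none at their starts or within their bodies. The window covered 247.5 kb, chr12:109402823-109650330. The stronger member of the pair, chr12:109542940-109543152, had a signal of 234 and ranked 11974 in replicate 1 and 12565 in replicate 2. The other, chr12:109542016-109542335, had a signal of 153 and ranked 21036 in replicate 1 and 16906 in replicate 2. They were 866 bp apart, and both fell in annotated exons of Meg3. The left core was on the plus strand and the right core on the minus strand, so the pair pointed towards each other. Both cores held 2 CpG.

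The 5′ end of Meg3 itself lay 1175 bp to the left of this pair, and 2 of the 11 annotated starts of Meg3 had a summit within 1 kb. Meg3 held 4 peaks in all. The weaker pair lay further along the gene, with signals of 21.5 and 35.5, and the second of these had a perfect core. A perfect core thus went with a signal of 35.5 in Meg3 and of 314 in Usp29.

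Dlk1 had its nearest peak 6588 bp upstream. This peak, chr12:109446147-109446319, had a signal of 176, ranks of 15389 in replicate 1 and 20112 in replicate 2, and a best core with 3 mismatches. A peak 14918 bp upstream of Dlk1, chr12:109437800-109437952, had a signal of 156, ranks of 20480 in replicate 1 and 17264 in replicate 2, and a plus-strand core with 1 mismatch and 2 CpG. Between the upstream peak of Dlk1 and the peak before Meg3 was a stretch of 92.9 kb without an optimal peak, which takes in the whole of Dlk1. The strongest of the 15 pooled peaks in it had a signal of 22.4. The pooled list had 2 peaks within 1 kb of starts of Dlk1, of signal 8.59 at most. Rtl1 had its nearest peak 8913 bp from its start, in an intron of the noncoding Rian, with a signal of 71.1. The 3 peaks in Rian had signals from 46.8 to 71.1.

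The window edges at Dlk1 left out stronger sites on both sides. The nearest peak inside, 13.7 kb from the left edge, had a signal of 28.0. The peak chr12:109401270-109401486, 1.5 kb outside, had a signal of 272, above every peak inside the window. On the right, the last peak inside had a signal of 46.8, and the nearest outside, 99.8 kb beyond the edge, had 207. At the Peg3 locus the nearest peak inside on the left had a signal of 241 and the nearest outside 189, and on the right the inner peak had 21.6 and the outer 23.3. The peaks just inside the Grb10 window had signals of 198 and 33.3, against 94.4 and 74.6 for the nearest outside. At Gnas the outermost peaks inside had signals of 26.1 and 37.3, and the nearest outside, 116.0 kb and 57.2 kb from the edges, had 98.2 and 39.1.

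The Gnas locus had its peaks within or at the edge of the gene, 10 of the 12 inside its annotated bounds and the others just upstream. The window of 162.4 kb, chr2:174234320-174396744, was the shortest, and it had the most peaks per length. Nespas, the noncoding RNA transcribed antisense to the Nesp start, overlaps the upstream part of Gnas. A peak has no strand, so those near starts of both genes cannot be assigned to either.

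The strongest Gnas peaks lay in intron sequence between the starts of Gnas-204 and Gnas-212. The peak chr2:174312199-174312430 had a signal of 264 and ranked 10562 in replicate 1 and 9584 in replicate 2. Its neighbour 1250 bp to the left had a signal of 233 and ranked 12032 in replicate 1 and 12599 in replicate 2. Also there, chr2:174307939-174308258, had a signal of 97.0 and ranked 24797 in replicate 1 and 30303 in replicate 2. All had cores on the plus strand.

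At the upstream end, the peak 136 bp before the start of Gnas-210 had a signal of 224 and ranked 12787 in replicate 1 and 13279 in replicate 2. A weak peak further upstream, chr2:174283202-174283521, had a signal of 26.1 and ranked 230955 in replicate 1 and 38867 in replicate 2. These ranks differed by 5.94 times, the most of the 53, and the peak was not in the conservative set. At the start of Nespas a peak of signal 53.4 ranked 38628 in replicate 1 and 34080 in replicate 2. Next to it, chr2:174296141-174296460 had a signal of 24.9 and ranked 53278 in replicate 1 and 89428 in replicate 2. The peak chr2:174297332-174297651, 367 bp before the start of Gnas-204, had a signal of 101, ranks of 25246 in replicate 1 and 26580 in replicate 2, and 2 CpG in its core.

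The Gnas starts from Gnas-207 to Gnas-205 had weaker peaks. The peak chr2:174329488-174329807, 358 bp before Gnas-207, had a signal of 55.5, ranks of 36132 in replicate 1 and 39920 in replicate 2, and a best core with 5 mismatches. The peak chr2:174330705-174331024, 578 bp into Gnas-205, had a signal of 37.3 and ranked 41689 in replicate 1 and 83245 in replicate 2. Of the 16 annotated starts of Gnas, 6 had a summit within 1 kb. The strands of the cores split the locus, since the 3 matched cores on the minus strand all lay to the left of the 4 on the plus strand, and the 2 groups pointed away from each other.

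Promoter occupancy differed among the 9 genes. A summit lay within 1 kb of an annotated start for 6 of the 9 (66.7%), where 39.8% of all 21938 protein-coding genes had one. Meg3 is among the 6 and is a noncoding gene, a type that the 39.8% does not cover. Peg3 and Usp29 shared a peak, so the 6 genes are not independent, and genes with many annotated starts have more chances to be counted. The strongest promoter peak was 234 at Meg3, 224 at Gnas, 165 at Grb10, 134 at Zim1 and 39.3 at Peg3 and Usp29. Ddc, Dlk1 and Rtl1 had none. Ddc had its nearest peak 1685 bp from an internal start, with a signal of 20.0, although introns of Ddc held some of the strongest peaks of the 4 loci.

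Among the other listed genes of these domains, 2 of 16 had a promoter peak, namely Fignl1 and Nespas. Zim2, Zim3, Zfp264, Cobl, Ikzf1, Begain, Wdr25, Rian, Mirg, Dio3, Dio3os, Npepl1, Ctsz and Zfp831 had none. Some came close, with a peak of signal 241 at 1448 bp from a start of Zim2 and of signal 72.8 at 1905 bp from a start of Wdr25. Dio3, which encodes the deiodinase that inactivates thyroid hormone, had a peak of signal 65.0 at 2840 bp. Mirg had a peak of signal 207 at 2211 bp. Peg3os and Apeg3 are not listed under these names in the annotation. Members and listed genes together gave 8 of 25 with a promoter peak (32.0%). Some of the 25 are noncoding genes or pseudogenes, and the share over all genes of those types was not computed.

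**Figure D3:**
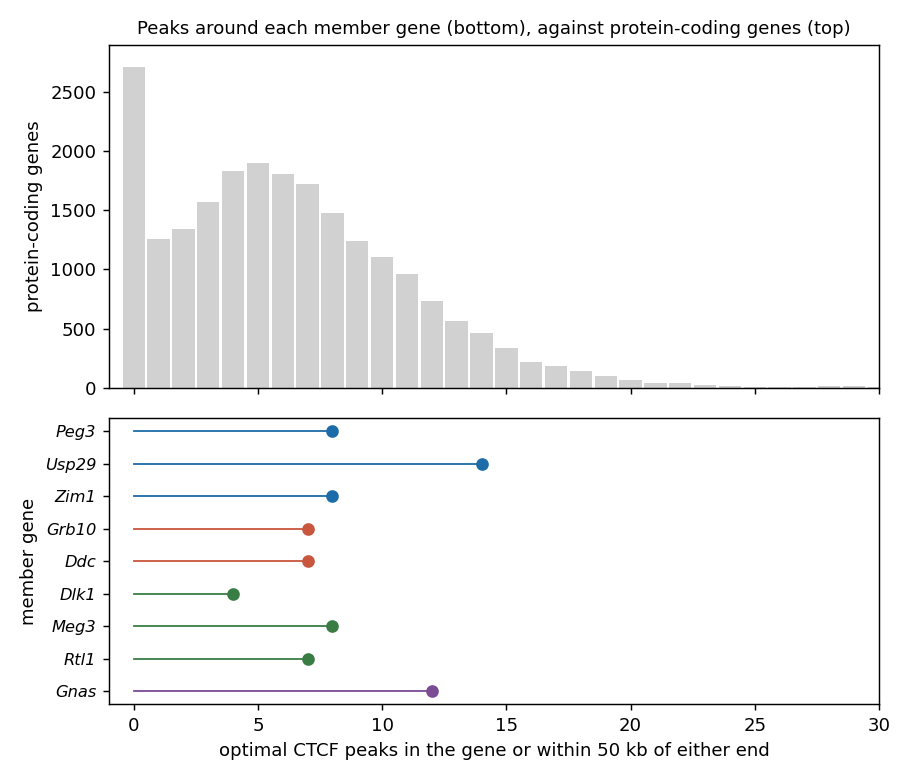
Number of optimal peaks in a gene or within 50 kb of either end (horizontal axis) for the 21938 protein-coding genes (top, bars, vertical axis in genes, the few genes above the axis left out) and for the 9 member genes (bottom, a point each, coloured by locus). Dlk1 has 4 peaks, Gnas 12 and Usp29 14, and the other 6 genes have 7 or 8, against a median of 6 over protein-coding genes.

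The 4 loci held 46.9 peaks per Mb over 1130.5 kb, against 23.0 over the assembled chromosomes. Windows drawn in the same way around protein-coding genes had a median of 40.25 per Mb. The Gnas locus had 73.9 per Mb (exact Poisson interval 38.2 to 129), the Dlk1 locus 48.5 (25.1 to 84.7), the Grb10 locus 43.1 (23.6 to 72.4) and the Peg3 locus 37.9 (21.2 to 62.5). All 4 intervals take in that median and overlap each other, so the order of the loci was not resolved at these counts. Gene by gene, 78.8% of coding genes had a less dense window than Gnas, 72.0% than Zim1 and 41.6% than Grb10.

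The share of these peaks with the core had an interval that took in the share of the whole set. A match with at most 2 mismatches was found at 38 of 53 (71.7%, Wilson interval 58.4 to 82.0), where 65.4% of all optimal peaks had one. By locus the counts were 12 of 15 at Peg3, 10 of 14 at Grb10, 9 of 12 at Dlk1 and 7 of 12 at Gnas. Windows of the same length 1 kb to the left and to the right of the summits held a match at 1 of the 53 peaks on each side. The median signal of the 53 was 71.1, against 73.9 for the other optimal peaks. Members with the core had a median of 109 and those without it 44.7, while other optimal peaks had 110 with and 43.8 without.

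**Figure D4:**
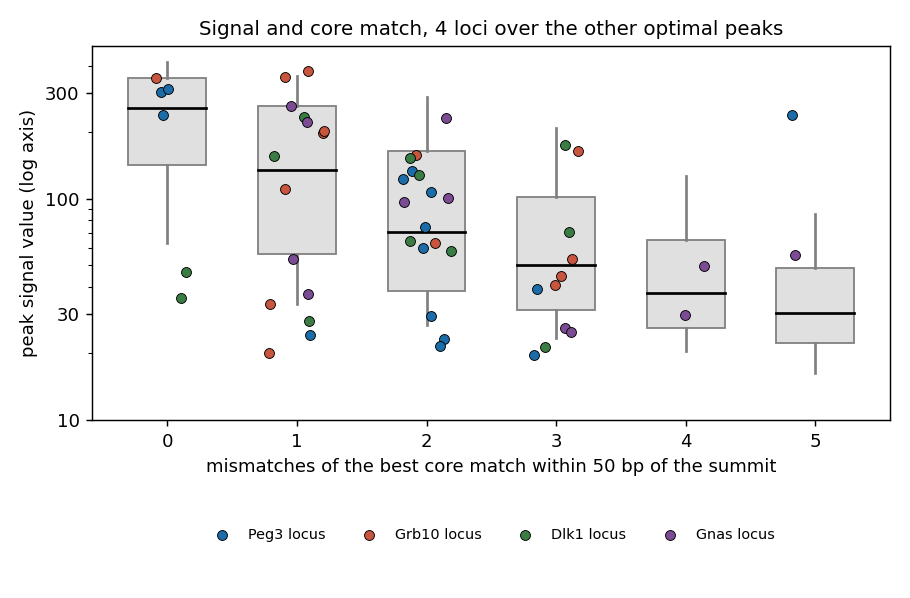
Signal of each peak (vertical, log axis) against the mismatches of its best core match within 50 bp of the summit (horizontal), with coloured points for the peaks of the 4 loci, spread sideways for legibility. Grey boxes give the quartiles of the other optimal peaks, black lines their medians and whiskers their outer deciles. The Zim2 intron peak at 5 mismatches, signal 241, stands above its whisker, and the 2 Dlk1-locus peaks with perfect cores and signals of 35.5 and 46.8 stand below theirs.

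Perfect cores were found at 6 of the 53 peaks, where 8.70% of the other optimal peaks had one. Signals of these 6 ran from 35.5 to 351 with a median of 272, against 257 for other optimal peaks with a perfect core. With 1 mismatch the median was 156 over 15 peaks, against 134 elsewhere, and with 2 it was 97.0 over 17 peaks, against 70.7 elsewhere. Of the other optimal peaks, 26.0% had 1 mismatch and 30.7% had 2. Peaks with 1 mismatch ran from 20.0 to 378 in signal.

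CpG within the core occurred at 15 of the 38 matched peaks (39.5%), against 32.5% of matched peaks elsewhere. The locus counts were 4 at Peg3, 3 at Grb10, 4 at Dlk1 and 4 at Gnas. The observed to expected CpG ratio around the summit had a median of 0.335 over the 53 peaks, against 0.224 elsewhere. The 18 peaks within 1 kb of a start of any gene had a median ratio of 0.639, and 10 of them had the core. The 35 others had a median ratio of 0.202, and 28 of them had the core. This split was not made over all optimal peaks, so whether it is particular to these loci is not known. The higher ratio over the 53 was likewise not separated from the number of them near starts. The motif TGCCGC of ZFP57, the zinc finger protein that keeps methylation at imprinted control regions, was looked for over the same stretch and on both strands. It lay at 3 of the 53 peaks (5.66%), against 5.27% of other optimal peaks. Methylation was not measured, so whether any of these CpG is methylated is not known from these files.

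Agreement between the libraries was described by ranks and by the conservative IDR set, which is not a subset of the optimal set. All 53 peaks overlapped a peak in both library lists, as did 62362 of all 62677 optimal peaks on the assembled chromosomes. The optimal set was itself chosen by how ranks repeat between lists, so this overlap says little about these loci. Of the 53, 41 (77.4%) were among the strongest 62686 of both lists, where 82.8% of all optimal peaks were. The conservative IDR set held 44 of the 53 (83.0%), where it held 87.1% of all optimal peaks. By locus it held 11 of 15 at Peg3, 14 of 14 at Grb10, 10 of 12 at Dlk1 and 9 of 12 at Gnas. Counted by its own summits, the conservative set had 17 peaks at the Grb10 locus, against 14 in the optimal set. It gave 9 members and listed genes with a promoter peak, against 8. The larger rank was a median of 1.18 times the smaller at the 4 loci, against 1.158 elsewhere, and 3 members differed by 2 times or more. These 3 were the upstream Gnas peak, the second Peg3 intron peak and a peak of signal 19.7 in Usp29, chr7:6910913-6911232. This Usp29 peak ranked 137174 in replicate 1, where the matched summit lay 109 bp away, and 57886 in replicate 2. None of the 3 was in the conservative set, and the last was named after its values were seen.

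Most neighbouring cores pointed the same way, both here and over all optimal peaks. Peaks without a match, or with a tied strand, were passed over when pairs were formed. Of 32 neighbouring pairs with matched cores and a defined strand, 6 pointed towards each other (18.8%, against 23.7% of all such pairs), 7 away from each other (21.9% against 23.7%) and 19 the same way (59.4% against 52.6%). Besides the Meg3 pair, a wider pair enclosed Dlk1, with a plus-strand core 14918 bp upstream of Dlk1 and a minus-strand core before Meg3 at a distance of 101.3 kb, and the unmatched peak upstream of Dlk1 lay between them. The Grb10 locus had 1 such pair, of 9.8 kb inside Ddc, and the Peg3 locus had 3, of 6.4, 11.3 and 17.9 kb. Gnas had none. The files do not measure contacts, so a pair of cores is not a loop.

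Beyond the 32 peaks that the naming rule selects, 21 had signals from 19.7 to 198, and 15 of them had the core. The strongest of these was chr11:11788471-11788735 in an exon of Fignl1, with a second peak of signal 111 only 240 bp away, and both were named after their values were seen.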

How the data were processed

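CTCF ChIP-seq peaks of 2 libraries were analysed as deposited, on mm10. Per the deposited file descriptions, the authors called peaks on each library and on the pooled alignments, each with a control, and derived the conservative and optimal IDR sets from these lists. No source used here names the aligner, the peak caller, or the IDR version and threshold. The deposited signal is the caller's score, with no stated unit, and the deposited summit offset in bp gave each position. Peaks were assigned by summit to GENCODE vM21 genes, and matched to each library's list by the overlapping peak (at least 1 bp) with the nearest summit. Start-site peaks had a summit within 1 kb of any annotated transcript start. The core was searched on GRCm38 sequence, on both strands. Python 3.11.15, pandas 2.3.3, numpy 2.4.6 and SciPy 1.17.1 were used. The core search was tested on simulated sequence and the matching of peaks on a small made-up example, and the other steps were not tested this way. There was 1 group, so no test was run, and shares have Wilson intervals and densities exact Poisson intervals. The peaks described singly were the 3 strongest per locus, those at starts of members or listed genes, and those inside or between members in the stronger part of the set. Genes, lists and this rule were chosen with earlier results of these data known. Alternatives covered the peak set, the replicates, the margin, the promoter distance and the core settings. Controls and read depth were not analysed here.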

Additional observations from a re-analysis of the deposited data

How the results depend on the processing

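Of 50 alternatives, 38 were counted as leaving the result the same and 12 as moving it. For peak counts this line was not the Poisson interval given above, so a moved count can lie inside that interval. Keeping only the stronger 31343 optimal peaks left 26 peaks at the 4 loci, with 8 at Peg3, 8 at Grb10, 5 at Dlk1 and 5 at Gnas, and 4 genes with a promoter peak, and the share with the core was 88.46%. A margin of 10 kb left 7 peaks at Dlk1. A promoter distance of 2500 bp gave 15 genes with a peak. The core share was 39.62% with at most 1 mismatch, 92.45% with at most 3, and 49.06% within 25 bp of the summit. Using either library alone moved none of these results. No paired analysis was possible because there is 1 group. With 12 to 15 peaks per locus and no read counts, the order of the loci by peak number or density was not resolved.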

Other observations

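The pooled list held 116 further peaks at the 4 loci that are not in the optimal set, 31 at Peg3, 31 at Grb10, 40 at Dlk1 and 14 at Gnas. Their median signal was 8.96, and none reached the median of the optimal set. The strongest, of signal 34.8, lay in Grb10 at chr11:12005723-12006042. The weakest optimal peak of the 4 loci had a signal of 19.7, so the ranges of kept and left-out peaks overlapped. Overlapping peaks in both library lists were found for 41 of the 116.

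The 3 Peg3-locus peaks in sequence marked as repetitive were compared over the core and its flanks. Over 44 aligned bases, the Zim1 site and the 2 Usp29 sites had 24, 33 and 29 identical bases in their 3 pairs. The 528 pairs among 33 matched peaks outside such sequence, those with 44 bases written out, had a median of 17 and a maximum of 27. The pairs with 33 and 29 were above that range, and the pair with 24, of the Zim1 site and chr7:6907040-6907359, was within it. These sites were compared after their values were seen, and whether reads from similar repeat copies were placed at the wrong copy was not tested.

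RefSeq promoters on GRCm38.p6, 300 bases each, were found for 8 of the 9 genes, all but Rtl1, and gave 14 promoters. The core matched 1 of them (7.14%), that of Gnas at chr2:174284070-174284369, against 14.4% of all 32851 promoters. The YY1 motif CGCCATNTT matched none, against 2.38% of all promoters. No match says only that these letters are not in the 300-base window.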
